A study of Mus musculus with 57 samples.

Results

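The genes described here encode the proteins of the small (40S) subunit of the cytosolic ribosome. They were taken from the table of raw target counts by name, as every target called Rps with a number and at most 1 letter, or Rpsa, which gave 31 of 9780 targets. Each was read by 1 probe. The rule did not use any measured value. It leaves out 3 targets whose products also belong to the small subunit, Rps3a1, Fau and Rack1, and these are given separately below. Rps4l was not among the targets analysed here.

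The tissue was pancreas of C57BL/6 mice in formalin-fixed tissue arrays, measured with the GeoMx Whole Transcriptome Atlas, in which probes bind RNA in a section, light frees their barcodes from a chosen square, and the barcodes are sequenced and counted. Pancreatitis was induced at 8 to 9 weeks of age by hourly injections of caerulein, an analogue of the hormone cholecystokinin, over 8 hours on consecutive days. Caerulein groups were sampled at 3 hours (3 regions), 12 hours (6), 24 hours (6), 48 hours (5), 72 hours (4), 5 days (6), 7 days (6), 14 days (7) and 30 days (7), and the control group had 7 regions, which makes 57 in all. Every group lay on both of the 2 tissue arrays. From what event the times run, and how control mice were treated, is not stated. The labels give no genetic change or second agent, and they do not tie regions to animals. The counts of a group were therefore added within each array, which gave 20 sums, 2 per group. Every comparison takes these sums as its samples, so a p-value reflects only the spread between sums, which may be technical. The array 1 sums of 3 hours and 72 hours held 1 region each.

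A ribosome is built from equal parts of its proteins, and cells keep the synthesis of these proteins matched to one another. In mammals their mRNAs begin with a C and a run of pyrimidines, the terminal oligopyrimidine (TOP) motif, through which the mTOR pathway sets how strongly they are translated. The acinar cell of the pancreas, which makes the digestive enzymes, is among the most active protein-producing cells of the body and is known for a dense rough endoplasmic reticulum.

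The sequences around the annotated start of transcription are shown first for 5 members, because they show where pyrimidine runs lie near it and because these members differ in their course. Each is 30 bases from RefSeq on GRCm38.p6, with 10 bases before the annotated start and 20 from it, so that base 11 is the start, and the longest run of pyrimidines is in capitals. Rps6 and Rps16 had the largest differences at 12 hours, Rps15a is shown beside Rps6 for a motif that begins at the annotated start, and Rps26 and Rps27l had the smallest differences at 12 and 24 hours. The windows are chr4:86857348-86857377 on the minus strand for Rps6, chr7:28350679-28350708 on the plus strand for Rps16, chr7:118116128-118116157 on the minus strand for Rps15a, chr10:128626487-128626516 on the minus strand for Rps26, and chr9:66946076-66946105 on the plus strand for the upstream of 2 annotated starts of Rps27l.
Rps6: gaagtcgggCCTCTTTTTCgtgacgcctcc
Rps16: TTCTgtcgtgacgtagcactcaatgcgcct
Rps15a: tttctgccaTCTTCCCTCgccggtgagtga
Rps26: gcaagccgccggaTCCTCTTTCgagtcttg
Rps27l: CCTCCCCgccgcctctatcccggaagttgc

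Of the 31 members, 23 had such a window. A C followed by at least 4 pyrimidines on the transcribed strand stood somewhere in the window of 16 members (69.6%), against 39.6% of 27002 other genes. It began exactly at the annotated start in 6 members (26.1%), Rps6, Rps10, Rps15a, Rps18, Rps21 and Rps27, against 2.99% of other genes. In the whole RefSeq window of 250 bases before the start to 50 bases after it, on either strand, the ETS core CCGGAAG was present in 10 members (43.5%) and in 9.9% of other genes, and the YY1 core AAGATGG in 5 members (21.7%) and in 7.27% of other genes. A match is a description of these letters and not a binding site. Rps16, with the second largest difference at 12 hours, had no C followed by 4 pyrimidines in its window. Rps26 and Rps27l, with the smallest differences, both had it. In neither did it begin at the annotated start, as was so for most of the 23 members with a window. A link between this motif and the differences was not tested.

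The probes read most members at a single place in the genome, but 7 members had a second position. The Rps6 probe matched Rps6 at chr4:86854812-86854846 and also chr2:75191183-75191217, inside the pseudogene Rps6-ps4 and a long non-coding RNA gene. The Rps23, Rps2 and Rps15a probes also matched the pseudogenes Gm8624, Gm45855 and Rps15a-ps6, and the Rps27 probe also matched Rps27rt, a protein-coding copy. Counts of these 7 targets cannot be divided between the copies. No position was given for Rps27a. The Rps16 probe lay at chr7:28352524-28352565, the Rps20 probe at chr4:3835257-3835291, the Rps26 probe at chr10:128625228-128625262 and the Rps27l probe at chr9:66946870-66946905, each within its own gene and at 1 position. All coordinates are those of GRCm38.p6 as the file gives them.

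A region held 1036609 to 5035488 target counts, the median being 2036021. Background was read from the mean of the negative probes, whose sequences have no transcript to bind, and was 42.1 to 186 counts. A target was tested where it exceeded 2 times this background in at least 3 of the 57 regions, and all 31 members were. In control regions the members were low: 27 exceeded 2 times background in most of the 7 regions, 14 did so in all of them, and 11 did so in all 57 regions. The other 4 passed the filter through the other groups. Among them Rps3 and Rps15a exceeded this level in 0 of 7 control regions and Rps27 in 1, and these 3 exceeded it in 6 of 6 regions at 12 hours and at 24 hours. Being kept by the groups in which they were high, such members add little to a count of members that rose. Background adds to both sides of a ratio, so folds of such members are understated. A probe's count depends on how well it binds, so levels are compared between groups and not between members.

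The small-subunit genes as a group took a larger share of all target counts at the early times after caerulein. Summed over the 31 members, the share per region was 0.679 ± 0.167% at 3 hours (SD, n = 3), 0.982 ± 0.209% at 12 hours (n = 6), 0.942 ± 0.237% at 24 hours (n = 6), 0.644 ± 0.069% at 48 hours (n = 5) and 0.627 ± 0.183% at 72 hours (n = 4). It was 0.475 ± 0.0574% at 5 days (n = 6), 0.535 ± 0.0409% at 7 days (n = 6), 0.408 ± 0.0705% at 14 days (n = 7) and 0.391 ± 0.016% at 30 days (n = 7), against 0.382 ± 0.055% in control regions (n = 7). The lowest regions at 12 and 24 hours, at 0.732% and 0.742%, lay above the highest control region, at 0.45%, while the 14-day regions, from 0.329% to 0.54%, overlapped with the control regions, from 0.301% to 0.45%. A share of all counts also moves with the other targets. The tests below therefore use normalised counts (CPM), which are counts scaled to a fixed total over the tested targets after trimmed-mean (TMM) scaling, a scaling that holds the middle of all tested targets level between samples.

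At 12 hours after caerulein, 26 of the 31 small-subunit genes rose and 0 fell (edgeR quasi-likelihood test, Benjamini-Hochberg adjusted p under 0.05 over 2688 targets), where 21.8% of all tested targets rose and 21% fell. All 31 stood above control in the fit, with a median log2 difference of 0.82, against -0.01 over all tested targets, where 48.3% of targets stood above 0. Both 12-hour sums exceeded both control sums for 31 of 31 members, against 33.6% of all tested targets. The largest log2 differences included 1.40 for Rps6, the target of the S6 kinases, 1.34 for Rps16, whose tail reaches the peptidyl site, 1.27 for Rps20, a protein of the head, 1.22 for Rps23, which lines the decoding centre, and 1.18 for Rps7. The smallest included 0.11 for Rps26, which sits at the mRNA exit channel, 0.24 for Rps27l, a paralogue of Rps27 induced by p53 in human cells, and 0.50 for Rps2. Among the 5 members that did not pass were Rps10, Rps26, Rps27l and Rps28, at 0.51, 0.11, 0.24 and 0.50.

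**Figure D1:**
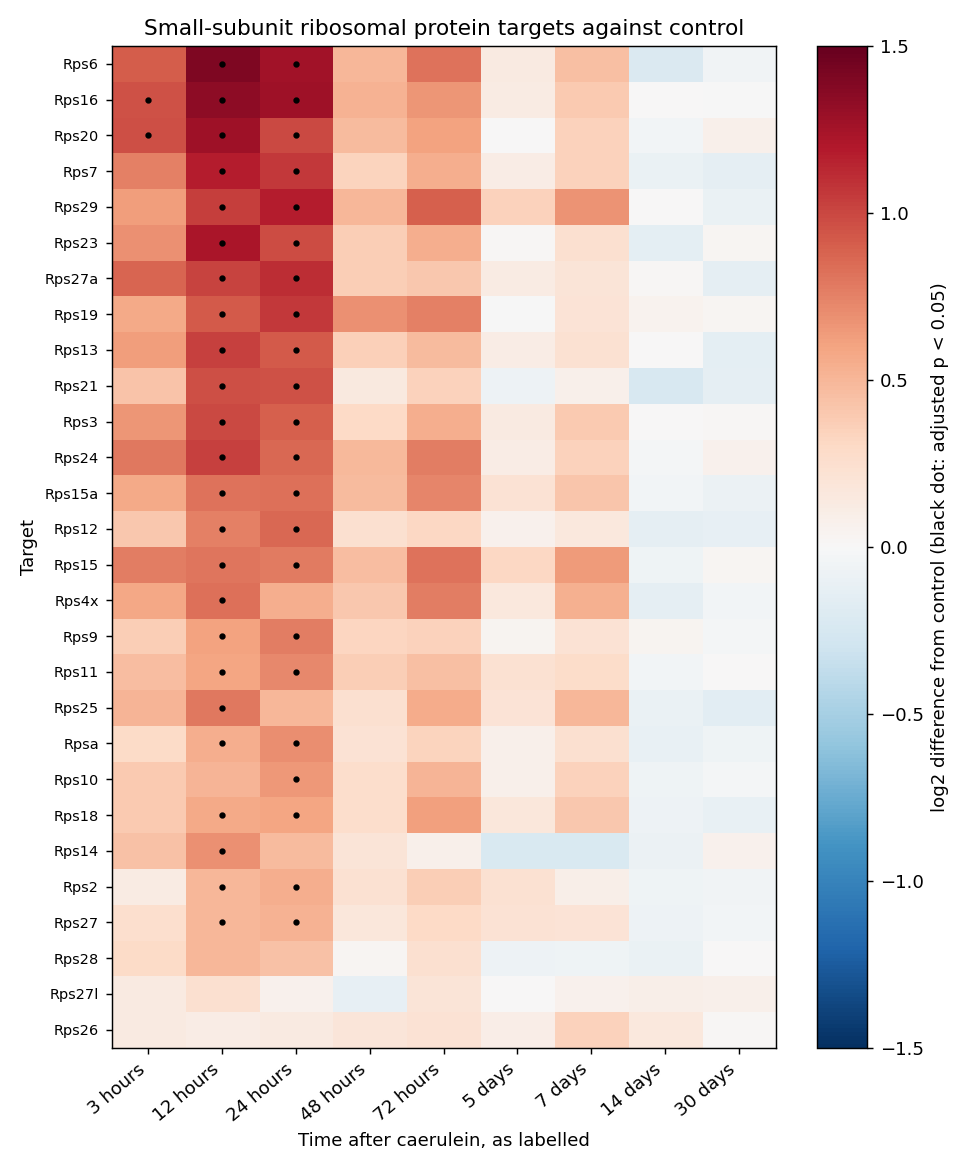
Log2 difference from control of 28 of the 31 small-subunit targets (rows, ordered by their mean at 12 and 24 hours) at each of the 9 times after caerulein (columns), from the edgeR fit on 2 sums per group. Black dots mark an adjusted p under 0.05. The dots lie at 3, 12 and 24 hours only, in 2, 24 and 22 rows, and Rps28, Rps27l and Rps26 at the foot of the map carry none.

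At 24 hours 25 members rose and 0 fell, where 21.8% of all tested targets rose and 20.5% fell, and the median log2 difference was 0.78. Both 24-hour sums exceeded both control sums for 31 of 31 members, against 34.6% of all tested targets. The largest included 1.27 for Rps16, 1.26 for Rps6, 1.18 for Rps29, a zinc-binding protein of the head, 1.11 for Rps27a, which is made as a fusion with ubiquitin, and 1.06 each for Rps7 and for Rps19, which is mutated in human Diamond-Blackfan anaemia. The smallest were 0.07 for Rps27l, 0.13 for Rps26, 0.44 for Rps28 and 0.47 for Rps14. Members that passed at 24 hours but not at 12 hours included Rps10 (0.65 at 24 hours, 0.51 at 12 hours), and those that passed at 12 hours but not at 24 hours were Rps4x, Rps14 and Rps25. Whether the 2 times differ for these members was not tested.

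The calls at 12 and 24 hours rest strongly on array 2. Within array 1 the median log2 difference of the members was 0.42 at 12 hours and 0.45 at 24 hours, and within array 2 it was 1.16 and 1.00. All 31 members stood above control on each array at both times. In the fit over both arrays 48.3% and 50.2% of all tested targets stood above 0. Far fewer members were called at 12 hours in fits without the 12-hour sum or the control sum of array 2. The same held at 24 hours without the 24-hour sum or the control sum of array 2. Without the control sum of array 1 the fall was smaller at both times. Whether such a fall is particular to the members was not tested. In such a fit the lone remaining sum is assumed to vary like the other groups.

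**Figure D2:**
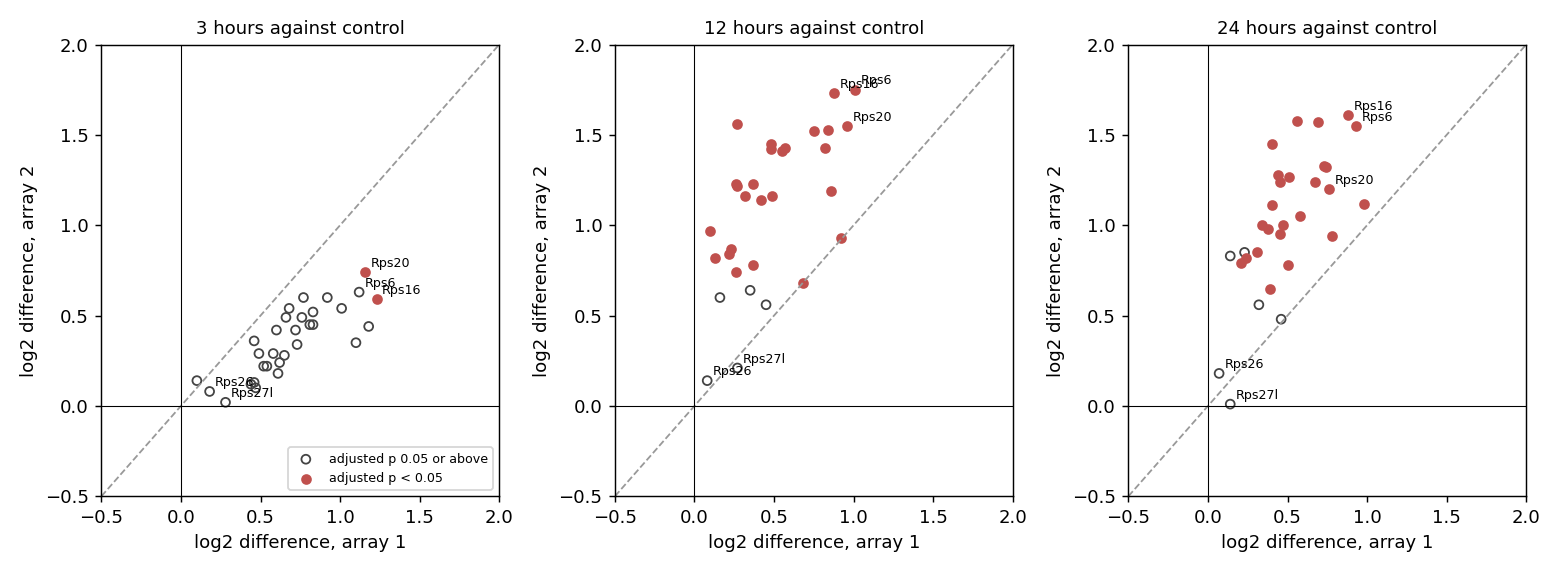
Log2 difference from control within array 1 (x axis) and within array 2 (y axis) for the 31 members at 3, 12 and 24 hours. Filled points have an adjusted p under 0.05, and the dashed line marks equal differences. Most points lie above the line at 12 and 24 hours and below it at 3 hours, where the array 1 sum is 1 region.

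Rps6 is described in full as the member with the largest difference and the smallest p for any change over the groups (adjusted p = 0.00148, edgeR quasi-likelihood test). On arrays 1 and 2 its sums stood at 774 and 441 CPM at 3 hours, 714 and 955 at 12 hours, 678 and 836 at 24 hours, 408 and 488 at 48 hours, and 767 and 385 at 72 hours. They were 334 and 365 CPM at 5 days, 452 and 420 at 7 days, 296 and 251 at 14 days and 307 and 307 at 30 days, against 355 and 284 in control. The 12-hour and 24-hour sums lay above both control sums on each array, and so did the sums at 3, 48 and 72 hours and at 7 days. The array 1 sums of 3 and 72 hours, of 1 region each, lay above their array 2 sums. By region the range was 624 to 1064 CPM at 12 hours (median 857, n = 6) and 603 to 937 CPM at 24 hours (median 688, n = 6), against 264 to 398 CPM in control regions (median 324, n = 7), so neither range overlapped with control. The log2 difference from control was 1.40 ± 0.30 (SE, adjusted p = 0.00196, edgeR) at 12 hours and 1.26 ± 0.30 (adjusted p = 0.00378, edgeR) at 24 hours.

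Among the other members with large differences, Rps16 reached 407 and 618 CPM in the array 1 and array 2 sums at 12 hours and 408 and 570 at 24 hours, against 221 and 186 in control. Rps20 stood at 862 and 1107 CPM at 12 hours and 751 and 869 at 24 hours, against 443 and 376 in control. For both genes each sum at these times exceeded each control sum, and the regions did not overlap with control at 12 hours (lowest 338 CPM for Rps16 and 812 CPM for Rps20, against highest control regions of 235 and 467 CPM). Rps23 was at 373 and 536 CPM at 12 hours and 331 and 437 at 24 hours, against 208 and 185 in control, and its probe also matches a pseudogene. With Rps6, these members had log2 differences of 1.22 to 1.40 at 12 hours, each with an SE of 0.25 to 0.30.

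Rps27a, which releases ubiquitin as well as a ribosomal protein, stood at 304 and 444 CPM in the 12-hour sums and 323 and 483 in the 24-hour sums, against 218 and 162 in control. Its log2 difference was 1.01 ± 0.31 (SE, adjusted p = 0.0157, edgeR) at 12 hours and 1.11 ± 0.31 (adjusted p = 0.00928, edgeR) at 24 hours. Rpsa, the gene of the laminin receptor precursor, which is also a protein of the small subunit, was at 218 and 288 CPM at 12 hours and 244 and 317 at 24 hours, against 187 and 161 in control. Its log2 difference was smaller, 0.55 ± 0.20 (adjusted p = 0.0354, edgeR) and 0.70 ± 0.20 (adjusted p = 0.0116, edgeR), and its regions overlapped with control, with a lowest value of 203 CPM at 12 hours against a highest control region of 223 CPM. At 24 hours the lowest Rpsa region, 225 CPM, lay just above that value.

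Rps26 and Rps27l did not pass in any comparison by edgeR after TMM scaling. Scaled to the total count, all 31 members, these included, were called higher at 12 and 24 hours. The median log2 difference of all tested targets was then 0.55 and 0.59. An unadjusted edgeR p under 0.05 was then found for 2067 and 2123 of all 2688 tested targets, in either direction, so these calls are not particular to the members. Rps26 stood at 698 and 685 CPM at 12 hours, 695 and 705 at 24 hours, 699 and 756 at 48 hours and 906 and 606 at 72 hours, against 662 and 621 in control. Its highest regions as a group were those at 7 days, from 759 to 884 CPM (n = 6), against 574 to 725 CPM in control (n = 7), which do not overlap, although the log2 difference of 0.35 ± 0.22 had an adjusted p of 0.756 by edgeR. Its log2 difference was 0.11 ± 0.22 (adjusted p = 0.699, edgeR) at 12 hours. Rps27l was at 224 and 215 CPM at 12 hours and 205 and 187 at 24 hours, against 185 and 186 in control, a log2 difference of 0.24 ± 0.13 (adjusted p = 0.151, edgeR) and 0.07 ± 0.13 (adjusted p = 0.674, edgeR). With the background subtracted Rps26 turned to -0.36 at 12 hours and -0.37 at 24 hours, and Rps27l to -0.19 at 24 hours. Among the members, Rps26, Rps27l and Rps6 departed most from the median course of the 31, as a root mean square over the 10 group levels. Whether Rps26 and Rps27l differ from the other members was not tested.

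**Figure D3:**
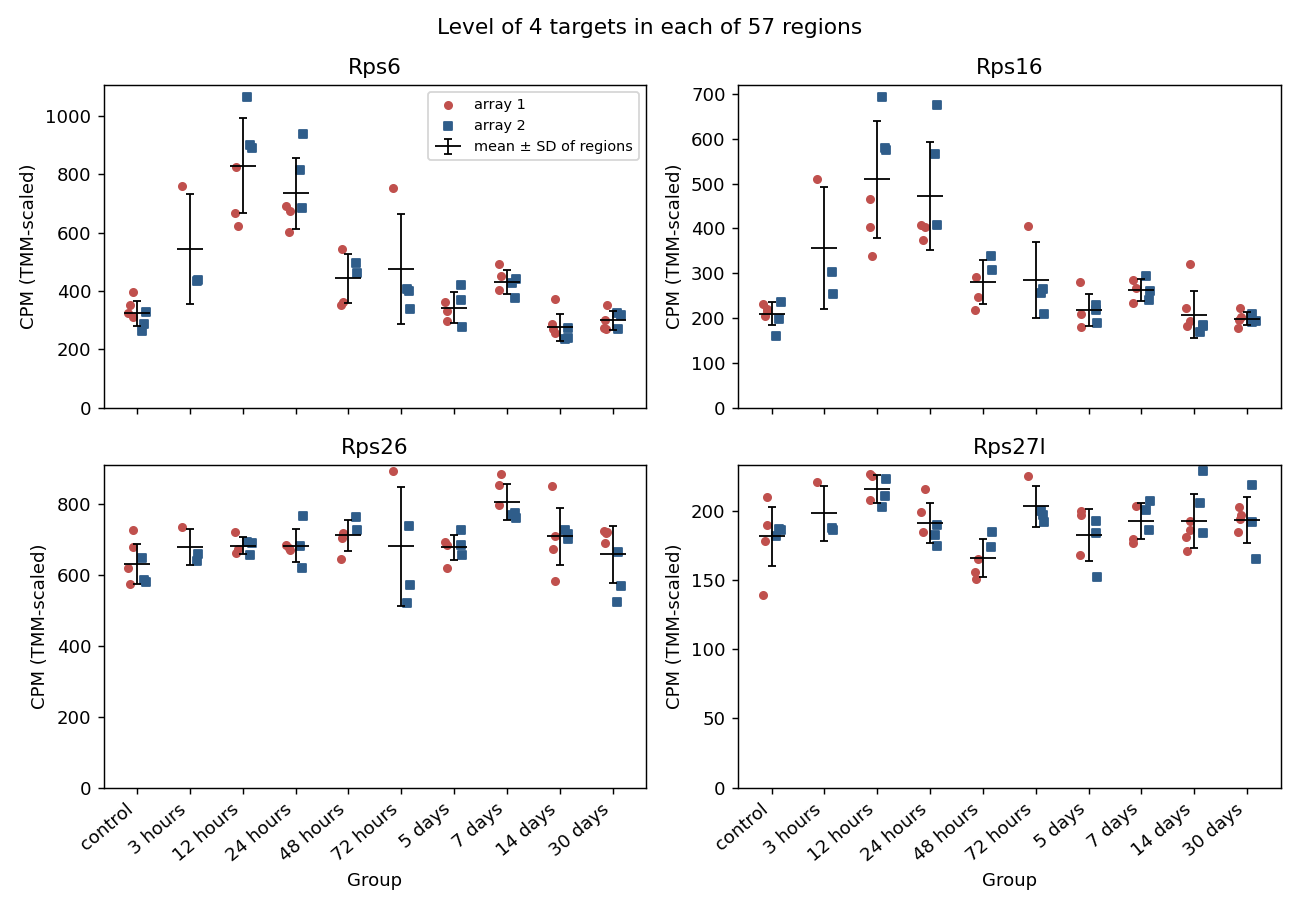
Level of Rps6, Rps16, Rps26 and Rps27l (CPM after TMM scaling, y axes from 0) in each of the 57 regions, by group with control at the left; circles are array 1, squares array 2, and bars the mean ± SD of the regions. Rps6 and Rps16 lie above every control region at 12 and 24 hours, and Rps26 and Rps27l overlap with control there.

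At 3 hours 2 members rose and 0 fell, where 7.66% of all tested targets rose and 3.76% fell. They were Rps20, with 992 and 629 CPM in the array 1 and array 2 sums against 443 and 376 in control (log2 difference 0.97 ± 0.28 SE, adjusted p = 0.0346, edgeR), and Rps16, with 520 and 281 CPM against 221 and 186 (0.95 ± 0.30, adjusted p = 0.0475, edgeR). All 31 members stood above control in the fit, with a median log2 difference of 0.51 against -0.02 over all tested targets. Next came Rps6 at 0.91, Rps27a at 0.87, Rps24 at 0.79 and Rps15 at 0.77, none of which passed, and the lowest were Rps2 at 0.12, Rps26 at 0.13, Rps27l at 0.14 and Rps27 at 0.25. Both 3-hour sums exceeded both control sums for 23 members, against 27.6% of all tested targets. The single region of array 1 set much of this difference: within array 1 the median was 0.66 and within array 2 it was 0.36. Neither call stood without that region or without either control sum, while more members were called without the 3-hour sum of array 2. DESeq2 called 7 members, where it called 10.2% of all tested targets higher. Scaled to the total count, edgeR called 29 members, where it called 47.4% of all tested targets higher.

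From 48 hours on, no member passed in edgeR's quasi-likelihood test against control after TMM scaling. Scaled to the total count, the same test called 28 members higher at 48 hours and 29 at 72 hours, where it called 74.2% and 55.8% of all tested targets higher, and 0 from 5 days on. At 48 hours 0 members were called, where 0.67% of all tested targets rose, and DESeq2 called 0. An unadjusted edgeR p under 0.05 was found for 381 of all 2688 tested targets and for 2 members, Rps19 and Rps15a. The median log2 difference was 0.32, and 30 of 31 members stood above control, Rps27l being the exception at -0.12, and 31 did so when scaled to the total count or to the negative probes. The highest were Rps19 at 0.69, Rps16 at 0.52 and Rps6 and Rps29 at 0.50. At 72 hours 0 were called, where again 0.67% of all tested targets rose. An unadjusted edgeR p under 0.05 was found for 340 of all 2688 tested targets and for 13 members. DESeq2 called 7 members, where it called 1.97% of all tested targets higher. The median was 0.47, and the highest were Rps29 at 0.90, Rps15 and Rps6 at 0.82, Rps4x, an X-linked gene, and Rps24 at 0.77 and Rps19 at 0.75. Within array 1, where the 72-hour sum is 1 region, the median was 0.73, and within array 2 it was 0.26. Without the 72-hour sum of array 2 some members were called, in a fit that leaves 1 region at that time.

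At 5 days 0 members were called, where 0.26% of all tested targets rose, and DESeq2 called 0. An unadjusted edgeR p under 0.05 was found for 202 of all 2688 tested targets and for 0 members, whose median log2 difference was 0.11. At 7 days 0 were called in edgeR, where 0.0372% of all tested targets rose, and DESeq2 called 0. An unadjusted edgeR p under 0.05 was found for 200 of all 2688 tested targets and for 4 members. The 7-day median was 0.31, with Rps29 at 0.67, Rps15 at 0.64, Rps4x at 0.53 and Rps25 at 0.50, and both 7-day sums exceeded both control sums for 25 members, against 17.1% of all tested targets. Rps14, a platform protein, was at -0.23 at both times, which did not pass. At 14 and 30 days the medians were -0.07 and -0.04, with 7 and 10 of 31 members above control. At each time 0 were called by edgeR or DESeq2, where 0.0% and 0.0372% of all tested targets rose in edgeR. An unadjusted edgeR p under 0.05 was found for 145 and 98 of all 2688 tested targets, and for 0 members. Scaled to the total count, both medians were 0.07, where those of all tested targets were 0.14 and 0.11. The sign against control thus moved with the scaling, and no direction is given for these times. Against the median of all tested targets the members stood at -0.07 and -0.04 under that scaling, and at -0.07 and -0.03 after TMM scaling.

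The decline was tested between times after caerulein. At 5 days 20 members were lower than at 24 hours and 0 were higher, where 19% of all tested targets were lower and 14.8% higher, and the median log2 difference was -0.70. The largest included -1.15 for Rps16, -1.12 for Rps6 and -1.07 for Rps19, and the smallest were -0.03 for Rps26, -0.07 for Rps27l and -0.30 for Rps2, Rps25 and Rps27. The Rps6 sums were 334 and 365 CPM at 5 days, against 678 and 836 CPM at 24 hours, a log2 difference of -1.12 ± 0.29 (SE, adjusted p = 0.00957, edgeR). Both 5-day sums lay below both 24-hour sums for 29 members, against 35.1% of all tested targets. Few or none of the members were called without the 24-hour sum of array 2 or without either 5-day sum. Within array 1 the median was -0.48 and within array 2 it was -0.80.

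At 48 hours against 24 hours, 0 members were called lower in edgeR, where 11.7% of all tested targets were lower. An unadjusted edgeR p under 0.05 was found for 13 members and for 920 of all 2688 tested targets. DESeq2 called 5 members, where it called 12.4% of all tested targets lower. The median log2 difference was -0.41, and both 48-hour sums lay below both 24-hour sums for 28 members, against 30.8% of all tested targets. Rps21 at -0.80, Rps6 and Rps16 at -0.76 and Rps27a at -0.75 were the lowest, and Rps26 at 0.06 was the only member above 0 in this comparison, with 0 above it when scaled to the total count. Without the 24-hour sum of array 1 some members were called. Between 24 and 3 hours 0 members were called in edgeR, where 3.27% of all tested targets were higher, and DESeq2 called 0. An unadjusted edgeR p under 0.05 was found for 521 of all 2688 tested targets and for 1 member. The member median in that comparison was -0.19 within array 1, where the 3-hour sum is 1 region, and 0.69 within array 2, so the arrays gave opposite directions. Over all groups together, 22 members changed, where 42.1% of all tested targets changed.

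**Figure D4:**
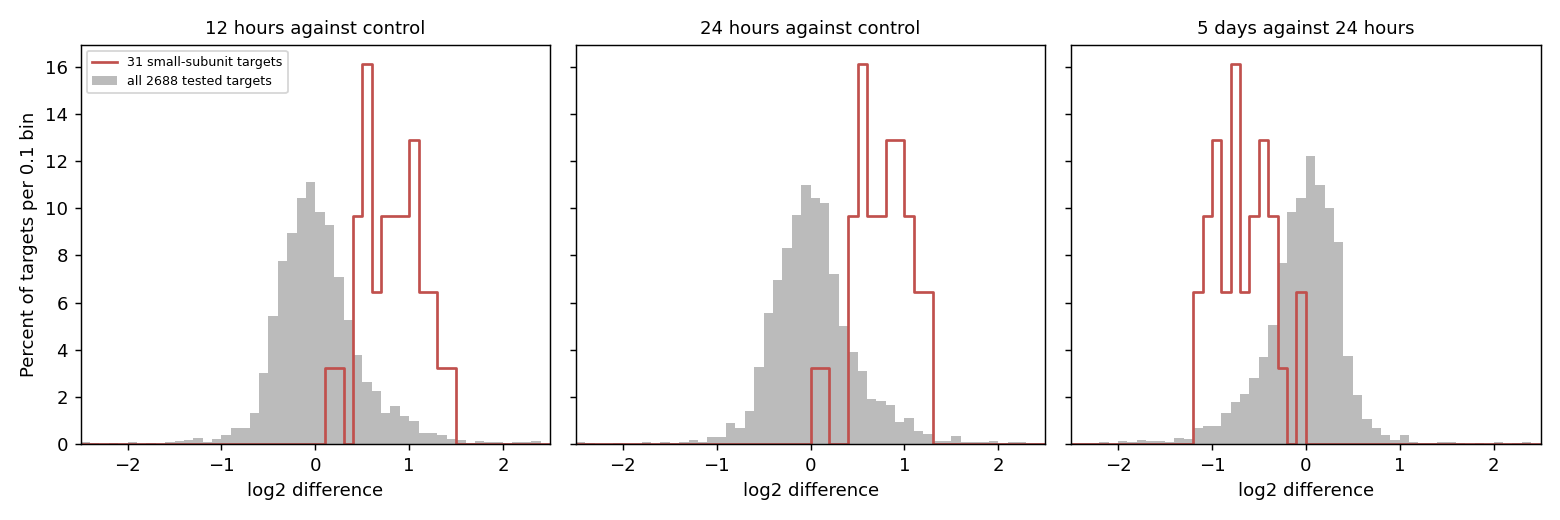
Distribution of log2 differences (x axis, bins of 0.1) as a percent of targets (y axis) for the 31 members (red line) and all 2688 tested targets, members included (grey), at 12 hours and 24 hours against control and at 5 days against 24 hours. The members lie right of the grey centre in the first 2 panels and left of it in the third; 25, 29 and 18 tested targets fall outside the plotted range.

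By place in the subunit, the head and the body with its platform gave similar counts and medians. Of the 14 head proteins, 11 rose at 12 hours and 12 at 24 hours, with medians of 0.83 and 0.82, and 9 were lower at 5 days than at 24 hours. Of the 16 body and platform proteins measured under the rule, 15 rose at 12 hours and 13 at 24 hours, with medians of 0.82 and 0.80, and 11 were lower at 5 days than at 24 hours. Both members called at 3 hours, Rps16 and Rps20, belong to the head, but 7.66% of all tested targets rose at that time. The 3-hour medians were 0.54 for the head and 0.52 for the body and platform. A difference between head and body was not tested.

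The small-subunit genes outside the naming rule gave like values. Rack1, a scaffold for kinases on the head, had sums of 206 and 360 CPM at 12 hours against 163 and 141 in control (log2 difference 0.88 ± 0.23 SE, adjusted p = 0.0072, edgeR). Rps3a1 stood at 327 and 498 CPM at 12 hours against 224 and 210 in control (0.93 ± 0.23, adjusted p = 0.00574, edgeR), and Fau, whose protein is cut to a ubiquitin-like part and a ribosomal part, at 286 and 384 against 180 and 151 (1.03 ± 0.28, adjusted p = 0.00858, edgeR). All 3 rose at 12 and 24 hours and were lower at 5 days than at 24 hours, and Fau also rose at 3 hours (1.08 ± 0.28, adjusted p = 0.0185, edgeR).

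Among the tested targets that are not members, those with a course most like the median of the 31 members, by the root mean square difference of log2 profiles over 10 group levels, each centred on its own mean, included Rack1, Rpl36, Rpl26, Rpl12, Rpl11, Rpl35a, Rps3a1, Rpl31 and Rpl38. The difference was 0.0486 for Rack1 and 0.0778 for Rpl38. Of those named, all but Rack1 and Rps3a1 encode proteins of the large subunit. Of 44 tested large-subunit targets, 3 rose at 3 hours, 32 at 12 hours and 34 at 24 hours, with medians of 0.52, 0.84 and 0.71 on the log2 scale. Of all tested targets 7.66%, 21.8% and 21.8% rose at these times. Of the 44, 25 were lower at 5 days than at 24 hours, where 19% of all tested targets were lower. In each of these comparisons 0 were called in the opposite direction. Whether the subunits differ was not tested.

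Genes that build the subunit were mostly too low to test. Of 20 measured small-subunit assembly factors 4 were tested, and 1 of them, Rrp12, was lower at 12 hours (-0.28 ± 0.09 SE, adjusted p = 0.0196, edgeR) and at 24 hours (-0.35 ± 0.09, adjusted p = 0.00725, edgeR). Of 4 tested box C/D and nucleolar genes 2 rose at both times: Ncl, which encodes nucleolin, at 176 and 231 CPM at 12 hours against 125 and 106 in control (0.83 ± 0.18, adjusted p = 0.0023, edgeR), and Npm1, which encodes nucleophosmin, at 123 and 203 CPM against 99.7 and 87.5 (0.82 ± 0.23, adjusted p = 0.0103, edgeR). Ncl also rose at 3 hours. Of the RNA polymerase I list 2 targets were tested, and both rose at 12 hours, Polr1d, a subunit shared with RNA polymerase III, by 0.45 and Taf1d, a subunit of its promoter factor, by 0.34 on the log2 scale. Of 5 tested genes of a list of S6 kinases, mTOR pathway genes and the RNA-binding proteins Larp1 and Larp4, 1 was lower at 12 hours: Larp4, which binds the poly(A) tail of mRNAs and is not a kinase (-0.24 ± 0.09, adjusted p = 0.0462, edgeR). The negative-probe level itself averaged 58.4 CPM over regions at 12 hours and 57.7 CPM at 24 hours, against 77.4 CPM in control. A target near background can fall with it. Whether Rrp12 and Larp4 fell by more than the background was not tested. Of 19 mitochondrial small-subunit genes 5 were tested, and 0 were called at 3, 12 or 24 hours, with differences between -0.20 and 0.10 at 12 hours.

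Marker lists of several cell types also changed at 12 and 24 hours. The acinar list of 16 measured targets, a check of the tissue that exceeded background for 16 of 16 in most control regions, had a summed level of 82985 to 132745 CPM at 12 hours and 21913 to 92371 CPM at 24 hours, against 276002 to 458898 CPM in control regions, and 15 of 16 fell at each time. The ductal list of 9 measured targets summed to 9887 to 20108 CPM at 12 hours and 5934 to 11266 CPM at 24 hours, against 1068 to 1238 CPM in control, and 7 and 6 of 7 tested targets rose. The fibroblast list of 9 summed to 1721 to 2601 CPM and 2613 to 5941 CPM, against 850 to 962 CPM, with 5 and 8 of 8 tested targets higher, and the macrophage list of 12 to 1217 to 1577 CPM and 1444 to 2832 CPM, against 1084 to 1200 CPM, with 3 and 8 of 11 higher and medians of 0.16 and 0.48 on the log2 scale. The islet list of 9 summed to 660 to 29497 CPM at 12 hours and 508 to 1192 CPM at 24 hours, against 760 to 1419 CPM in control, and 4 of 4 tested islet targets rose at 12 hours and 0 at 24 hours. The median 12-hour region had 1149 CPM of the islet list, against 1025 CPM in control. Of 2 tested neutrophil targets 1 fell at each time. The neutrophil list of 3 summed to 311 to 370 CPM at 12 hours and 286 to 379 CPM at 24 hours, against 392 to 424 CPM in control. The background level for 3 targets was 177, 178 and 230 CPM in turn, so it was lower at these times as well. Of 3 tested division targets 1 rose and 1 fell at 12 hours and 1 rose at 24 hours. Whether these neutrophil and division targets fell by more than the background was not tested. No target of the T cell, B cell or endothelial lists was high enough to be tested. None of the 71 measured marker targets was at 0 in any region, since the probes give a background count. Nuclei per region numbered 1512 ± 123 at 12 hours (SD, n = 6) and 1356 ± 289 at 24 hours (n = 6), against 942 ± 242 in control (n = 7). The part of these shifts in the differences of the small-subunit genes was not tested, and in regions of mixed cells a change in the number of cells of a type and a change in RNA per cell cannot be told apart.

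**Figure D5:**
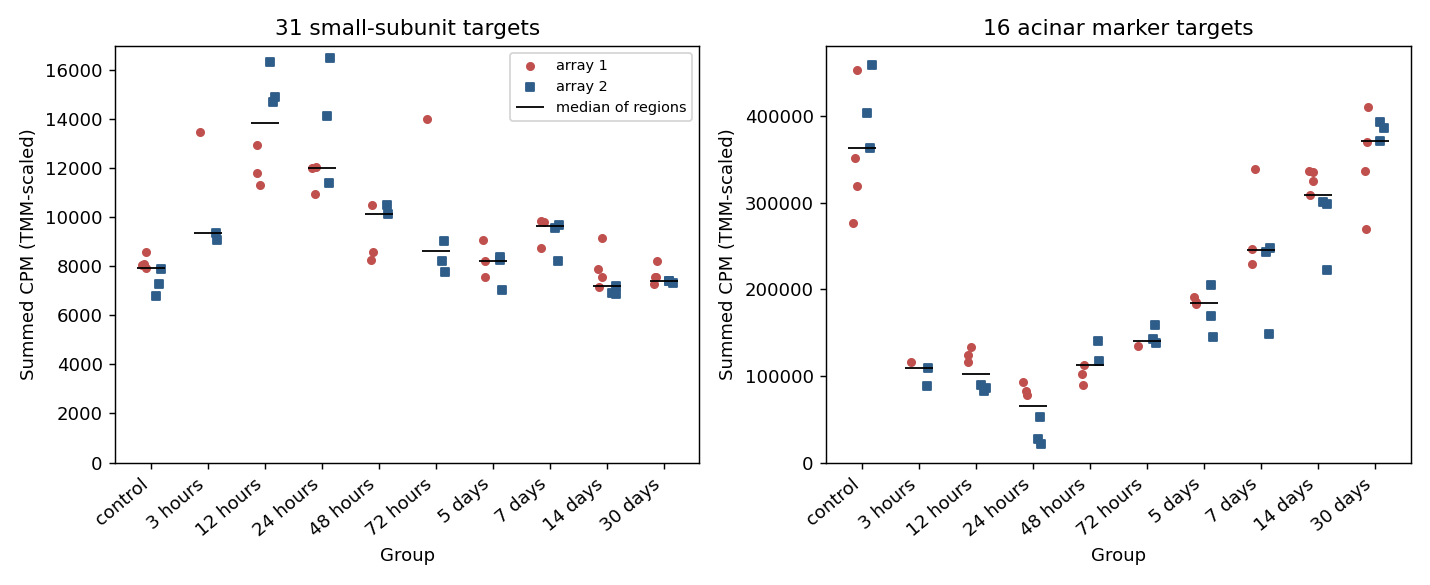
Summed level (CPM after TMM scaling) of the 31 small-subunit targets (left) and of 16 acinar marker targets (right) in each of the 57 regions, by group with control at the left; circles are array 1, squares array 2, and black bars the median of the regions. The small-subunit sum is highest at 12 and 24 hours, while the acinar sum is lowest at 24 hours and at 30 days has a median of 370930 CPM, against 363222 CPM in control.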

How the data were processed

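The authors deposited a table of expected counts, the deduplicated counts of each target per region, averaged over probes where a target had several. All 1767 values of the 31 members were whole to within 1e-06. Reads were turned into counts with GeoMx NGS Pipeline 2.3.3.10, per the file headers. A deposited summary gives nuclei and reads as counts per region (raw reads 36264864 to 167668771) and a limit of quantitation as a signal, and the probe annotation gives positions on GRCm38.p6. The submitters' processing notes name limma and mm10. What they were used for is not stated. The deposited normalised table was not used.

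Values were rounded, and the regions of a group were added within each array. The sums were fitted with edgeR 4.0.16 in R 4.3.3 (TMM, quasi-likelihood, terms for group and array, 9 residual degrees of freedom, dispersion 0.0122), over the 2688 targets that exceeded the negative-probe value 2-fold in 3 or more regions, and calls were made at a Benjamini-Hochberg adjusted p under 0.05. SEs were obtained from the F statistics as the size of the log2 difference over root F. The script was tested on simulated data. Alternatives were other scalings, background subtraction, filters, regions as samples, sums left out in turn and DESeq2 1.42.0. The members, the lists and the tests were chosen with earlier results of these data known. All members could be named, with the highest and lowest differences of each comparison, full values for members with the smallest p, the most unusual course or a place in the rule (Rps6, Rps27a, Rps27l, Rpsa), and up to 4 called genes of other lists. The values of a few targets that this rule would name are not reported here; counts and medians include them. The counts of 59 pairs of regions of 1 group on 1 array differed by 1.62 to 30.9 times the chi-square expected from sampling, so no library was counted as deposited again.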

Additional observations from a re-analysis of the deposited data

Results flagged for a closer look

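Single regions stood apart from the others of their group in 5 of 63 sets of regions examined, each set being 1 group of 4 to 7 regions for 1 of 6 members or for the sum of the 31, where the gap to the nearest region was large against the range of the group (Dixon's criterion). Chance alone gives this in about 1 of 20 sets.

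The array 1 region at 72 hours, the only one of that time on that array, had 754 CPM of Rps6, against 338 to 406 CPM in the other 3 regions, and 373 CPM of Rps23, against 200 to 222 CPM. Replicate 4 at 14 days, on array 1, had 371 CPM of Rps6 (236 to 286 CPM in the other 6) and 293 CPM of Rps27a (161 to 216 CPM). Replicate 1 at 30 days, on array 1, had a sum of 8207 CPM over the 31 members (7292 to 7562 CPM in the other 6). All 5 values came from array 1.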

How the results depend on the processing

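Each group had 2 sums, and most targets lay near background, so depth limits what can be called for low members. Deviations of regions with the same number correlated by 0.162 on average, from -0.448 to 0.671 over 223 pairs, against -0.0291 on average over 1231 pairs with other numbers. The deviations were taken from group means only. Low numbers lie mostly on array 1 and high numbers on array 2, so a difference between arrays may enter these correlations. As not every pair exceeded 0.1, and the labels give the numbers no other meaning, they were not taken to pair the samples. With regions as samples, members called numbered 18 at 3 hours, 9 at 48 hours, 8 at 72 hours and 7 at 7 days against control, 9 at 24 hours against 3 hours and 25 at 48 hours against 24 hours without a replicate block, and 18, 9, 8 and 8 against control, 0 at 24 hours against 3 hours and 24 at 48 hours against 24 hours with the replicate block. P-values over regions are too small if some regions share an animal, which the labels do not say. Under total-count scaling, which moved the median of all targets to 0.55 at 12 hours and 0.59 at 24 hours, 29 members were called at 3 hours, 28 at 48 hours and 29 at 72 hours. It called 73.0% of all targets higher and 1.56% lower at 12 hours, against 21.8% and 21%. At 12 hours the member median exceeded that of all targets by 0.75 to 0.84 under 4 other scalings, background subtraction included. Negative-probe scaling called 8 at 3 hours and 19 at 48 hours against 24 hours. The 75th percentile, no filter on low targets and the limit-of-quantitation filter called 4 at 48 hours against 24 hours. Background subtraction called 14 at 12 hours, 15 at 24 hours, 8 at 5 days against 24 hours and 14 in any group. DESeq2 called 7 at 3 hours, 7 at 72 hours and 5 at 48 hours against 24 hours. Leaving out 1 sum gave 0 to 8 at 3 hours, 1 to 28 at 12 hours, 0 to 25 at 24 hours, 0 to 7 at 72 hours, 0 to 15 at 48 hours against 24 hours, 0 to 22 at 5 days against 24 hours and 17 to 27 in any group. TMM factors from targets other than ribosomal proteins, chosen after seeing the data, called 27 at 12 hours and 25 at 24 hours. The share of all tested targets called moved with the setting as well. At 3 hours it was 47.4% higher under total-count scaling, against 7.66% after TMM scaling. Where no such share stands beside a count, the count does not show whether a change is particular to the members. The cause of these changes was not tested. Signs turned in 13 of 720 single-member values, none of them called. With the background subtracted, Rps27l turned to -0.0008 at 3 hours, -0.19 at 24 hours and 0.14 at 5 days against 24 hours, Rps26 to -0.2, -0.36 and -0.37 at 3, 12 and 24 hours and 0.38 at 5 days against 24 hours, and Rps2 to -0.17 at 3 hours and 0.04 at 5 days against 24 hours. With 1 sum left out, Rps2 at 3 hours ran from -0.04 (without the control sum of array 2) to 0.26, Rps27 at 3 hours from -0.03 (without the 3-hour sum of array 1) to 0.58, and Rps26 at 5 days against 24 hours from -0.12 to 0.06 and 0.08 (without the 24-hour sum of array 2 and the 5-day sum of array 1).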
